A study of Sus scrofa with 105 samples.

Results

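The miRNAs miR-451, miR-144 and miR-486, all known from red blood cells and their precursors, were followed through fixed brain tissue of piglets after diffuse traumatic brain injury. They were taken from the count table by name: every row whose name up to its first _ sign was ssc-miR-451, ssc-miR-144 or ssc-miR-486, keeping the row with the highest total where a name was repeated. ssc-miR-486 had 2 rows with identical counts, and ssc-miR-451 and ssc-miR-144 had 1 row each. They are 3 of the 448 miRNAs left after repeated rows were merged, 370 of which had any count.

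The samples were 105 small RNA libraries made from brain of female piglets that had been fixed and embedded in paraffin. The tissue was the hippocampus together with the amygdala, or the frontal lobe. A treated group of injured animals received the immunosuppressant cyclosporine A (CsA), an inhibitor of calcineurin, at 20 mg/kg/day intravenously, with a loading dose 6 hours after injury, an infusion of 24 hours and a survival of 30 hours. The other groups were untreated and consisted of injured animals at 1 week (6 to 8 days), injured animals at 1 day, and 1 joint group of sham and naive animals (0 to 8 days), called sham below. In that order the hippocampus and amygdala gave 10, 15, 10 and 18 libraries, and the frontal lobe gave 9, 15, 10 and 18. Names of the libraries held 53 animal codes, 52 of them with both regions, although the submitters' design text counts 50 subjects. Each code was taken as 1 animal, and replicates as animals. The CsA animals survived 30 hours and the untreated ones they are set against 1 day, so treatment and survival time cannot be told apart in that comparison. Strain, age and any perfusion of the brains are not stated.

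Red cell precursors transcribe miR-144 and miR-451 as a single primary transcript that depends on the erythroid factor GATA1. In mouse and human, miR-451 is cut to its mature form by Argonaute 2 without Dicer, it represses Ywhaz, the gene of a signalling adaptor, and its loss makes mouse erythroblasts sensitive to oxidative stress. miR-486 is encoded within ANK1, the gene of the red cell membrane anchor ankyrin-1, is made in erythroid cells and striated muscle, and is known to repress FOXO1. Mature red cells keep large amounts of miR-451 and miR-486, so the levels of these miRNAs in serum and tissue are known to move with blood content and haemolysis. In the RefSeq gene table for the pig (assembly Sscrofa11.1), MIR451 and MIR144 were neighbouring entries on the same chromosome and MIR486-1 lay within ANK1.

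Library totals ran from 98008 to 12703533 counts, and 3 sham libraries held fewer than 1000000. In units of 1000000 counts, median totals in the hippocampus and amygdala were 9.24 with CsA, 6.86 at 1 week, 9.22 at 1 day and 5.37 in sham animals. Frontal lobe medians were 8.44, 6.82, 9.87 and 4.68 in the same order, so the groups with the higher mean miR-451 were also sequenced more deeply. A library's counts were scaled to CPM, counts per 1000000 counted, with TMM factors. A level of 3 counts was then worth 0.222 to 0.538 CPM in the CsA and 1 day libraries of both regions, and 0.208 to 46.6 CPM in the sham libraries of both regions. The first digits of the animal codes were also uneven: all CsA and 1 day animals had codes beginning 10 to 13, against 9 of 15 at 1 week and 6 of 18 sham animals whose codes began with 14 or more. The meaning of the codes is not stated. The tissue label fitted its defining miRNAs: neuronal miR-124a lay between 4936 and 13353 CPM and neural miR-9 between 4924 and 21499 CPM in every library. Liver miR-122-5p was nevertheless counted in every library, at 23.0 to 187.0 CPM, whereas miR-122-3p was at 0 in all 105.

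miR-486 was by far the most abundant of the 3, with 114908 counts in all, the 107th highest total, and 39.1 to 394.5 CPM per library. miR-451 had 2631 counts, ranked 249th, was at 0 in 13 libraries and held 3 counts or fewer in 27. miR-144 had 821 counts, ranked 282nd, was at 0 in 22 libraries and held 3 counts or fewer in 52. CPM is not corrected for how well a library kit captures each miRNA, so these ranks are of counts and not of molecules. miR-486 exceeded both others in all 105 libraries, and miR-451 exceeded its cluster partner miR-144 in 79. Summed over libraries miR-451 had 3.20 counts for each count of miR-144, and the group sums ranged from 1.89 in frontal lobe sham tissue to 5.73 in the frontal lobe at 1 day. Median abundance over all libraries was 151.3 CPM for miR-486, 1.55 CPM for miR-451 and 0.599 CPM for miR-144.

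**Figure D1:**
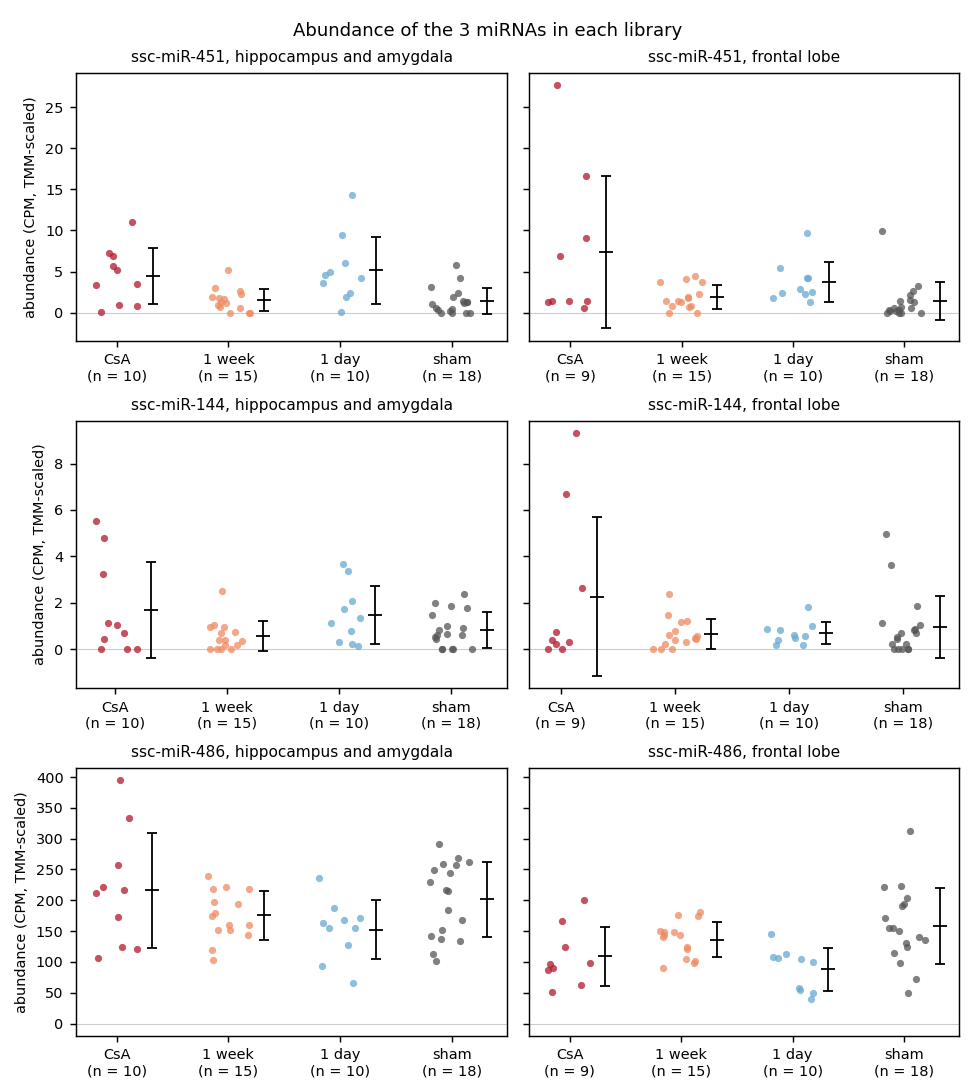
Abundance in CPM (TMM-scaled, linear axes) of ssc-miR-451, ssc-miR-144 and ssc-miR-486 in every library, by group, in the hippocampus and amygdala (left) and the frontal lobe (right); each point is 1 library and the black bars are mean ± SD. Mean miR-451 was highest in the CsA and 1 day groups, with single frontal lobe CsA libraries up to 27.7 CPM, whereas miR-486 in the frontal lobe averaged 87.9 CPM at 1 day against 157.8 CPM in sham tissue.

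miR-451, the Argonaute-cut member of the cluster, was higher 1 day after injury in the hippocampus and amygdala. The 1 day libraries ran from 0.129 through a median of 4.41 to 14.3 CPM, against 0, a median of 1.13 and 5.74 CPM in sham libraries. The groups overlapped: 9 of 10 injured animals lay above the sham median, and 3 lay above the highest sham animal. miR-451 averaged 5.16 ± 4.10 CPM at 1 day (SD, n = 10) and 1.40 ± 1.60 CPM in sham tissue (n = 18), a ratio of 3.68. The quasi-likelihood test of edgeR gave a log2 fold change of 1.85 (SE 0.51, adjusted p = 0.0031), in a comparison where 48.6% of the 290 tested miRNAs passed the threshold of 0.05. With the log10 library total as a covariate the value was 1.75 (adjusted p = 0.031). Within codes beginning 10 or 11 it was 3.52 (edgeR, adjusted p = 0.0047, 5 against 7 animals), and within codes beginning 12 or 13 it was 1.85 (adjusted p = 0.22, 5 against 5). In such bulk tissue a change in the number of cells of a type and a change in the RNA of each cell cannot be told apart.

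Frontal lobe miR-451 at 1 day ran from 1.28 through a median of 2.74 to 9.63 CPM, against 0, 0.554 and 9.91 CPM in sham libraries. All 10 injured animals lay above the sham median, 12 of the 18 sham libraries lay below the lowest 1 day library, and 1 sham library, replicate 7, lay above the highest. The sham libraries held a median of 2 counts of miR-451, and 10 of the 18 held 3 or fewer, so their median lies near the counting floor. miR-451 averaged 3.67 ± 2.44 CPM at 1 day and 1.37 ± 2.34 CPM in sham tissue (SD, n = 10 and 18). The log2 fold change of 1.22 (SE 0.53) missed the threshold (edgeR, adjusted p = 0.055), where 44.7% of the 284 tested miRNAs passed. Without sham replicate 7 it was 1.73 and passed (adjusted p = 0.0054). It also passed, at 1.25 to 1.37, without sham replicate 15 or 18 or without 1 day replicate 1, 3 or 5, and stayed above the threshold without any of the other 22 libraries. By DESeq2 the difference passed as well (1.34, adjusted p = 0.030), whereas with the log10 total as a covariate it was 0.91 (adjusted p = 0.32). Codes beginning 10 or 11 gave 3.67 (edgeR, adjusted p = 0.013). Values there were 2.30 to 9.63 CPM at 1 day (n = 5) and 0 to 0.561 CPM in sham libraries (n = 7). In those sham libraries miR-451 never exceeded 2 counts. Sham replicates 15 and 16, both at 0, had totals of 98008 and 678907, where 3 counts were worth 46.6 and 4.98 CPM. Replicates 10 and 12, also at 0, had 3 counts worth 2.19 and 1.51 CPM, above the lowest 1 day value of 1.28 CPM. The 0 of replicates 10, 12, 15 and 16 therefore cannot be placed below all 1 day values, although the 12 above include them. Codes beginning 12 or 13 gave 1.32 (edgeR, adjusted p = 0.37).

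With CsA, miR-451 was higher than in sham animals in both regions. The 9 frontal lobe CsA libraries separated into 5 low values between 0.569 and 1.41 CPM and 4 high ones at 6.88, 9.08, 16.6 and 27.7 CPM. All 9 lay above the sham median of 0.554 CPM, a level of 2 counts, and 2 lay above the highest sham library. Their mean was 7.36 ± 9.29 CPM, against 1.37 ± 2.34 CPM in sham tissue (SD, n = 9 and 18). The log2 fold change was 2.21 (SE 0.53, edgeR, adjusted p = 0.0022), where 34.2% of miRNAs passed, and it passed without any single library, at 1.62 to 2.71. Within codes beginning 10 or 11 it was 4.41 (adjusted p = 0.077, edgeR, 4 against 7 animals) and within codes beginning 12 or 13 it was 2.41 (adjusted p = 0.31, 5 against 5).

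The CsA libraries of the hippocampus and amygdala held 0.0946 to 11.0 CPM of miR-451 with a median of 4.30, against 0 to 5.74 CPM with a median of 1.13 in sham libraries. The ranges overlapped, with 7 of 10 CsA animals above the sham median and 3 above the highest sham value. Means were 4.46 ± 3.41 CPM with CsA and 1.40 ± 1.60 CPM in sham tissue (SD, n = 10 and 18), for a log2 fold change of 1.63 (SE 0.52, edgeR, adjusted p = 0.021), where 20.3% of miRNAs passed. The call was lost without CsA replicate 7, the highest library (1.37, adjusted p = 0.056), and with the log10 total as a covariate (1.54, adjusted p = 0.21). Within codes beginning 10 or 11 it held (3.49, edgeR, adjusted p = 0.023), and within codes beginning 12 or 13 it did not (1.41, adjusted p = 0.52).

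CsA against untreated injury at 1 day asks whether the drug alters the early change. For miR-451 the log2 difference was -0.22 (SE 0.54, adjusted p = 0.85) in the hippocampus and amygdala and 0.98 (SE 0.56, adjusted p = 0.93) in the frontal lobe. Leaving out CsA replicate 2 gave 0.39 in the frontal lobe. The frontal lobe median was lower with CsA, 1.41 CPM, than at 1 day, 2.74 CPM, while the mean was higher with CsA, 7.36 against 3.67 CPM. No miRNA passed in either region (0% of 290 and 0% of 284 by edgeR), with 69 and 12 at an unadjusted p under 0.05 and 7 and 0 passing by DESeq2.

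At 1 week miR-451 did not pass against sham in either region. Means in the hippocampus and amygdala were 1.52 ± 1.38 CPM at 1 week and 1.40 ± 1.60 CPM in sham tissue, and in the frontal lobe 1.89 ± 1.47 and 1.37 ± 2.34 CPM (SD, n = 15 and 18). Log2 differences were 0.20 (SE 0.51, edgeR, adjusted p = 0.90) and 0.36 (SE 0.51, adjusted p = 1.00), in comparisons where 0.345% and 0% of miRNAs passed. For the frontal lobe 19 miRNAs had an unadjusted p under 0.05 and DESeq2 called 1. The frontal lobe median was 1.43 CPM at 1 week and 0.554 CPM in sham tissue, the latter a level of 2 counts. There 13 of 15 animals at 1 week lay above the sham median. Without sham replicate 7 the log2 difference was 0.86 (edgeR, adjusted p = 0.81). Within codes beginning 10 or 11 the differences were 0.53 in the hippocampus and amygdala and 1.44 in the frontal lobe (adjusted p = 0.95 and 0.83), and within codes beginning with 14 or more they were -0.26 and -0.14 (adjusted p = 0.78 and 0.88). Against 1 day, miR-451 at 1 week fell by 1.65 on the log2 scale in the hippocampus and amygdala (SE 0.51, edgeR, adjusted p = 0.012), where 29.3% of miRNAs passed. There, 14 of 15 animals at 1 week lay below the 1 day median of 4.41 CPM. The call was lost without 1 day replicate 9, the library with 14.3 CPM (-1.31, adjusted p = 0.059). The frontal lobe difference was -0.87 (SE 0.52, edgeR, adjusted p = 0.18), where 35.9% of miRNAs passed.

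**Figure D2:**
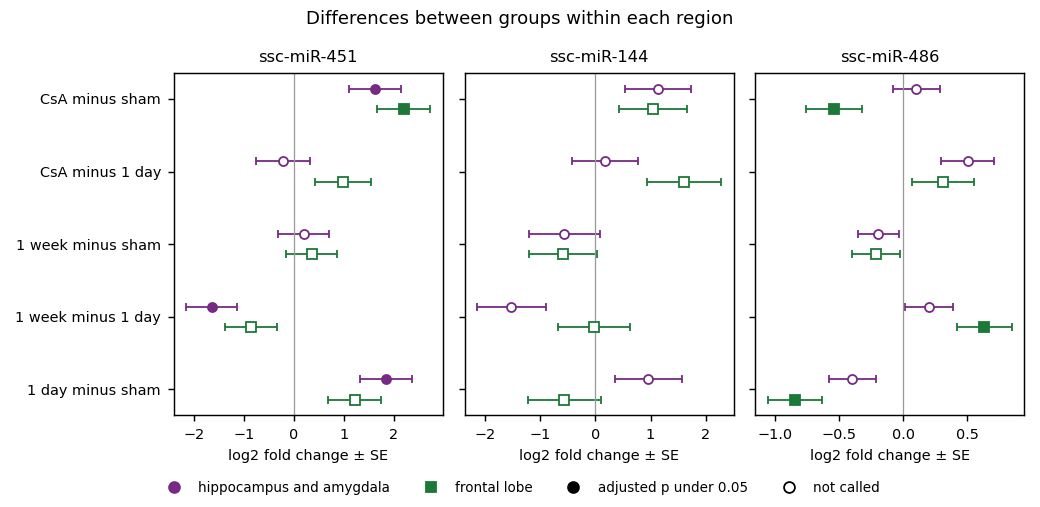
Log2 fold changes (points) ± SE (bars) of the 3 miRNAs for the 5 group comparisons, in the hippocampus and amygdala (circles) and the frontal lobe (squares); filled symbols passed an adjusted p of 0.05, and each panel has its own horizontal range. miR-451 lay to the right of 0 in CsA and 1 day tissue against sham and miR-486 to the left of 0 in the frontal lobe; the frontal lobe values of miR-144 come from a fit without the low-count filter.

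miR-144, transcribed with miR-451, gave no call. In the hippocampus and amygdala it ran from 0.154 through a median of 1.24 to 3.69 CPM at 1 day, against 0, 0.628 and 2.38 CPM in sham libraries. Most 1 day animals, 7 of 10, lay above the sham median and 2 above the highest sham library. Means were 1.48 ± 1.26 and 0.832 ± 0.764 CPM (SD, n = 10 at 1 day and 18 sham). The log2 difference was 0.96 (SE 0.60, edgeR, adjusted p = 0.18). With CsA it ran from 0 through 0.878 to 5.54 CPM, 3 libraries lay above the highest sham value and 3 were at 0, and the log2 difference from sham was 1.13 (SE 0.60, adjusted p = 0.17). At 1 week the median was 0.389 CPM, and the log2 difference from sham was -0.57 (SE 0.64, adjusted p = 0.76). CsA minus 1 day was 0.18 (SE 0.61, adjusted p = 0.88).

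The difference of 1 week from 1 day came closest for miR-144, with 14 of 15 animals at 1 week below the 1 day median. It was -1.52 (SE 0.63, edgeR, adjusted p = 0.058). It passed without 1 day replicate 5 (-1.65, adjusted p = 0.038) or 6 (-1.59, adjusted p = 0.049), or without 1 week replicate 2 (-1.73, adjusted p = 0.037) or 12 (-1.66, adjusted p = 0.043).

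Frontal lobe miR-144 did not pass the low-count filter, so its values there come from the fit without that filter. It held 0 to 9.32 CPM with CsA (median 0.399), 0 to 2.36 CPM at 1 week (0.468), 0.166 to 1.81 CPM at 1 day (0.576) and 0 to 4.95 CPM in sham libraries (0.623). The groups overlapped, with 2 CsA libraries, at 6.68 and 9.32 CPM, above the highest sham library. Without the filter the log2 difference of CsA from sham was 1.05 (edgeR, adjusted p = 0.20), of 1 day from sham -0.56 (adjusted p = 0.55), and of 1 week from sham -0.59 (adjusted p = 0.91). CsA minus 1 day was 1.61 (unadjusted p = 0.020, adjusted p = 0.92 from edgeR) and 1 week minus 1 day was -0.03 (adjusted p = 0.99). Of the 52 frontal lobe libraries, 27 held 3 counts or fewer of miR-144.

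miR-486, the ANK1 miRNA, fell 1 day after injury in the frontal lobe. It ran from 39.1 through a median of 102.8 to 145.9 CPM at 1 day, against 48.8, 153.2 and 312.2 CPM in sham libraries. No 1 day animal lay above the sham median, and 10 of 18 sham libraries lay above the highest 1 day library. Means were 87.9 ± 35.3 CPM at 1 day and 157.8 ± 61.5 CPM in sham tissue (SD, n = 10 and 18). The log2 fold change was -0.85 (SE 0.21, edgeR, adjusted p = 0.0011), where 44.7% of the 284 tested miRNAs passed (53 higher and 74 lower). It passed without any single library, at -0.96 to -0.73. With the log10 total as a covariate it was -0.62 (adjusted p = 0.034). On library totals alone, where the median over all tested miRNAs was 0.24, it was -0.56 (edgeR, adjusted p = 0.022). It was -0.76 within codes beginning 10 or 11 (edgeR, adjusted p = 0.037, 5 against 7 animals) and -0.64 within codes beginning 12 or 13 (adjusted p = 0.35, 5 against 5).

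In the hippocampus and amygdala miR-486 ran from 65.9 through 159.5 to 236.8 CPM at 1 day, against 100.8, 216.1 and 291.9 CPM in sham libraries. Most 1 day animals, 9 of 10, lay below the sham median. The log2 difference of -0.40 (SE 0.18) did not pass (edgeR, adjusted p = 0.064). It passed with 4 of the 28 single libraries left out, at -0.43 without sham replicate 1, -0.44 without sham replicate 10 or 13, and -0.49 without 1 day replicate 5, and by DESeq2 (-0.44, adjusted p = 0.034). It was -0.25 with the log10 total as a covariate (edgeR, adjusted p = 0.35) and -0.12 on library totals alone (adjusted p = 0.59). Within codes beginning 12 or 13 it was -0.03 (edgeR, adjusted p = 0.97), with medians of 155.5 CPM at 1 day and 141.6 CPM in sham tissue. Within codes beginning 10 or 11 it was -0.46 (adjusted p = 0.20).

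At 1 week miR-486 in the frontal lobe ran from 89.4 through 142.9 to 181.2 CPM, and 12 of the 15 animals lay above the 1 day median of 102.8 CPM. It averaged 136.3 ± 29.1 CPM at 1 week and 87.9 ± 35.3 CPM at 1 day (SD, n = 15 and 10). The log2 fold change was 0.63 (SE 0.22, edgeR, adjusted p = 0.020), where 35.9% of miRNAs passed (66 higher and 36 lower). Without 1 day replicate 1, the library with 39.1 CPM, it was 0.54 (adjusted p = 0.054). The same difference was 0.20 in the hippocampus and amygdala (SE 0.19, adjusted p = 0.40). The 1 week levels were not separable from sham in the frontal lobe (-0.21, SE 0.18, edgeR, adjusted p = 0.96) or in the hippocampus and amygdala (-0.20, SE 0.16, adjusted p = 0.74). Among codes beginning with 14 or more, however, the frontal lobe difference was -0.45 (edgeR, adjusted p = 0.032), with medians of 140.0 CPM at 1 week (n = 9) and 173.2 CPM in sham tissue (n = 6).

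With CsA, miR-486 in the frontal lobe ran from 51.3 through 96.7 to 201.1 CPM, against 48.8, 153.2 and 312.2 CPM in sham libraries, and 7 of 9 CsA animals lay below the sham median. The log2 fold change was -0.54 (SE 0.22), just past the threshold (edgeR, adjusted p = 0.0497), where 34.2% of miRNAs passed (42 higher and 55 lower). It passed in 11 of the 27 fits that left out 1 library, at -0.70 to -0.56, and missed in the other 16, at -0.56 to -0.44. In the hippocampus and amygdala the CsA libraries ran from 106.7 through 213.8 to 394.5 CPM, against 100.8, 216.1 and 291.9 CPM in sham libraries, and the log2 difference was 0.10 (SE 0.18, adjusted p = 0.70). CsA minus 1 day was 0.50 (SE 0.20, adjusted p = 0.13) in the hippocampus and amygdala, where 3 of 10 CsA libraries lay above the highest 1 day library. The frontal lobe value was 0.31 (SE 0.24, adjusted p = 0.93).

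**Figure D3:**
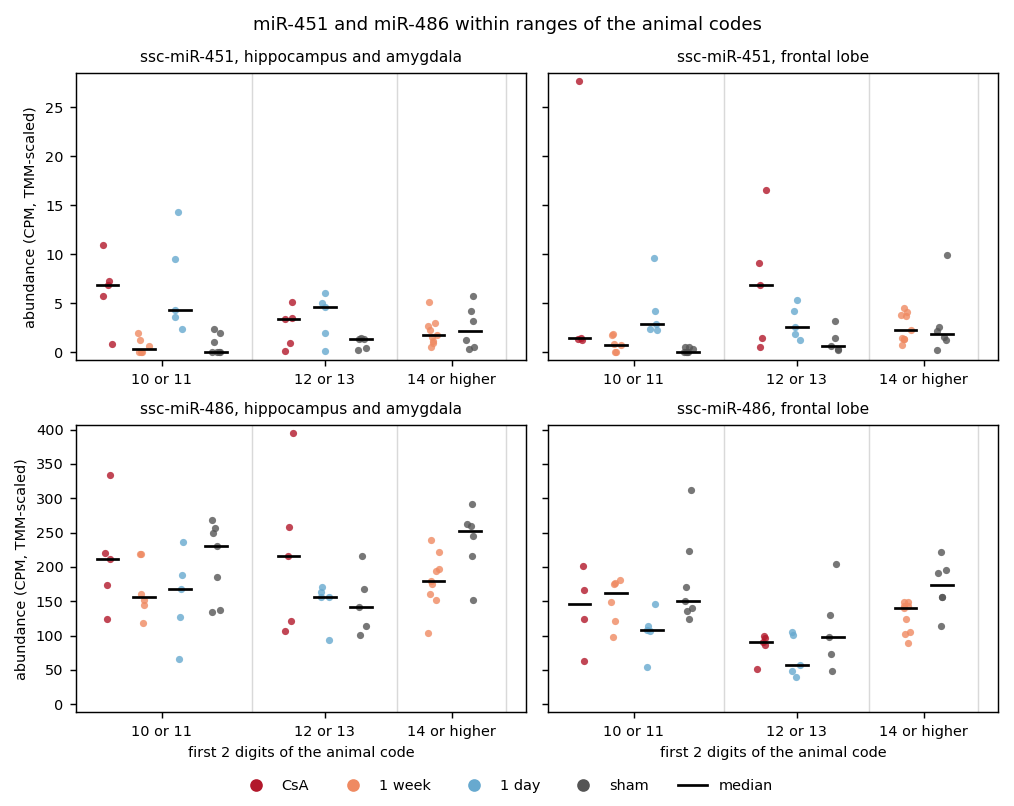
CPM of ssc-miR-451 (top) and ssc-miR-486 (bottom) in each library, split by the first 2 digits of the animal code; points are libraries coloured by group and bars are medians. Codes beginning 12 or 13 hold no 1 week animals and codes from 14 hold only 1 week and sham animals. In sham libraries miR-451 had medians of 0 CPM for codes 10 or 11. For codes from 14 they were 2.18 CPM (hippocampus and amygdala) and 1.84 CPM (frontal lobe). The 3 libraries with totals under 1000000 are all sham libraries with codes 10 or 11.

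The medians of miR-451 in sham tissue were not the same over ranges of the animal code, which were compared without a test. In the hippocampus and amygdala the sham medians were 0 CPM for codes beginning 10 or 11 (n = 7), 1.29 CPM for codes beginning 12 or 13 (n = 5) and 2.18 CPM for codes from 14 (n = 6). Frontal lobe medians were 0, 0.626 and 1.84 CPM. All 3 libraries with totals under 1000000 were sham libraries with codes beginning 10 or 11. There a 0 can stand for few reads, and the part of depth in these medians was not tested. At 1 day the medians were 4.25 CPM for codes 10 or 11 and 4.57 CPM for codes 12 or 13 in the hippocampus and amygdala, and 2.92 and 2.55 CPM in the frontal lobe. The part of the codes in the differences between groups was not tested beyond these values within code ranges. miR-486 in sham tissue did not rise over the ranges in that way but was lowest for codes beginning 12 or 13 in both regions. Its medians were 230.4, 141.6 and 251.8 CPM in the hippocampus and amygdala and 150.9, 97.5 and 173.2 CPM in the frontal lobe. Codes beginning 12 or 13 held 5 of the 10 animals at 1 day and 5 of the 18 sham animals in each region.

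The regions were compared within the 52 animals that gave both, the animal being a block in the fit. miR-486 was higher in the hippocampus and amygdala than in the frontal lobe in all 9 CsA animals, with means of 219.5 ± 100.1 and 110.8 ± 47.5 CPM (SD). The log2 difference was 0.96 (SE 0.21, edgeR, adjusted p = 0.00013), where 57% of the 298 tested miRNAs passed. At 1 day it was higher in 8 of 10 animals, at 148.0 ± 49.7 and 90.8 ± 35.2 CPM, with a log2 difference of 0.74 (SE 0.21, adjusted p = 0.0027), where 46.6% passed. At 1 week the difference was 0.30 (SE 0.16, edgeR, adjusted p = 0.13; higher in 11 of 15 animals), where 43% passed. In sham animals it was 0.32 (SE 0.15, adjusted p = 0.080; higher in 12 of 18), where 47.3% passed. It passed in sham animals when both libraries of 1 animal, frontal lobe sham replicate 6, were left out (0.41, adjusted p = 0.020).

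Whether the response to injury differed between regions was tested as an interaction, the difference from sham in the hippocampus and amygdala minus that in the frontal lobe. For miR-486 it was 0.64 with CsA (SE 0.26, unadjusted p = 0.017 from edgeR, adjusted p = 0.12), 0.42 at 1 day (SE 0.26, adjusted p = 0.86) and -0.02 at 1 week (SE 0.22, adjusted p = 1.00). No miRNA passed in any of the 3 interactions (0%, 0% and 0%), with 73, 9 and 8 at an unadjusted p under 0.05 and 25, 0 and 0 passing by DESeq2, for CsA, 1 day and 1 week. So the call of miR-486 at 1 day in the frontal lobe, and its absence in the hippocampus and amygdala, was not shown to be a difference between the regions.

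**Figure D4:**
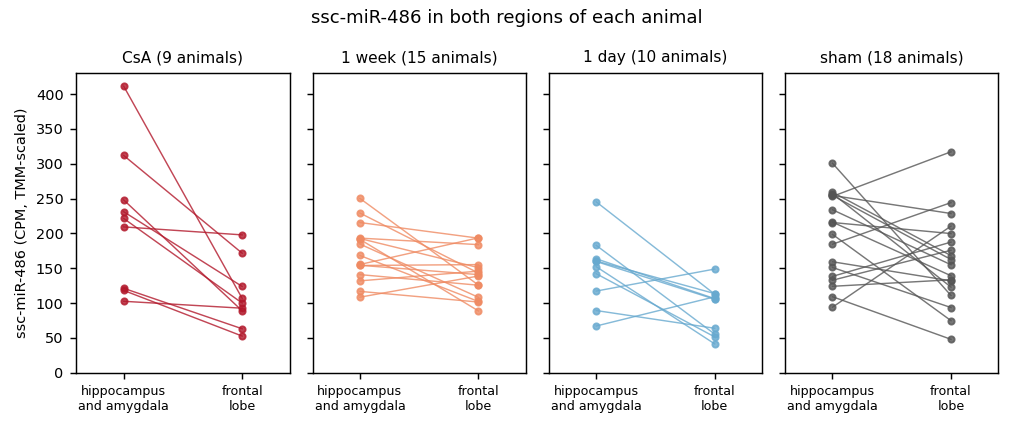
ssc-miR-486 in CPM (scaled over both regions together, axis from 0) in the hippocampus and amygdala (left points) and the frontal lobe (right points) of the same animal, joined by a line, in each group. All 9 lines of the CsA animals slope down to the frontal lobe, against 11 of 15 at 1 week, 8 of 10 at 1 day and 12 of 18 in sham animals.

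Neither cluster miRNA passed between regions. For miR-451 the log2 difference of the hippocampus and amygdala from the frontal lobe was -0.55 with CsA (SE 0.43, edgeR, adjusted p = 0.28), -0.33 at 1 week (SE 0.39, adjusted p = 0.54), 0.22 at 1 day (SE 0.39, adjusted p = 0.66) and -0.08 in sham animals (SE 0.44, adjusted p = 0.90). For miR-144 the same differences were -0.48, -0.37, 0.85 and -0.44, with adjusted p from 0.15 to 0.60. Its interaction at 1 day was 1.29 (SE 0.69, edgeR, adjusted p = 0.86) and that of miR-451 was 0.30 (SE 0.59, adjusted p = 0.96). Their CsA interactions were -0.04 (SE 0.77, adjusted p = 0.98) and -0.48 (SE 0.61, adjusted p = 0.64).

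The 2 cluster miRNAs were then set against each other within groups on a log2(CPM + 1) scale, among 60 relations of the members with each other, between regions and with the library total. In the CsA animals miR-144 and miR-451 went together in the hippocampus and amygdala (Pearson r = 0.82, permutation p = 0.0055; Spearman rho = 0.84, permutation p = 0.0038; n = 10), but neither passed after adjustment (0.17 and 0.19). Without the 2 animals farthest from the median of miR-451, r was 0.76. In the frontal lobe of CsA animals the miR-451 values fell into a low and a high set, so no coefficient is given there. The 3 libraries highest in miR-451, at 27.7, 16.6 and 9.08 CPM, were the 3 CsA libraries highest in miR-144. They held 9.32, 6.68 and 2.64 CPM of miR-144. The remaining library of the high set, replicate 8 at 6.88 CPM, held 0.399 CPM of miR-144, the group median. That was below the 0.717 CPM of replicate 9 in the low set. In sham frontal lobe r was 0.56 (permutation p = 0.019, adjusted p = 0.25, n = 18), and 0.37 without the 2 farthest animals. There rho was 0.49 (permutation p = 0.041, adjusted p = 0.32). Shallow sham replicates 10, 12, 15 and 16 held 0 counts of both miRNAs. Against the log10 library total, rho in this group was 0.55 for miR-451 (permutation p = 0.019, adjusted p = 0.29) and 0.19 for miR-144 (permutation p = 0.46, adjusted p = 0.81). miR-451 in one region went with miR-451 in the other at 1 week (r = 0.65, permutation p = 0.0090, adjusted p = 0.18, n = 15), with r = 0.40 without the 2 farthest animals. Its rho was 0.57 (permutation p = 0.029, adjusted p = 0.29). Against the log10 total, miR-451 at 1 week had r = 0.47 in the hippocampus and amygdala and 0.52 in the frontal lobe (permutation, adjusted p = 0.40 and 0.37). The part of depth in these relations was not tested.

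**Figure D5:**
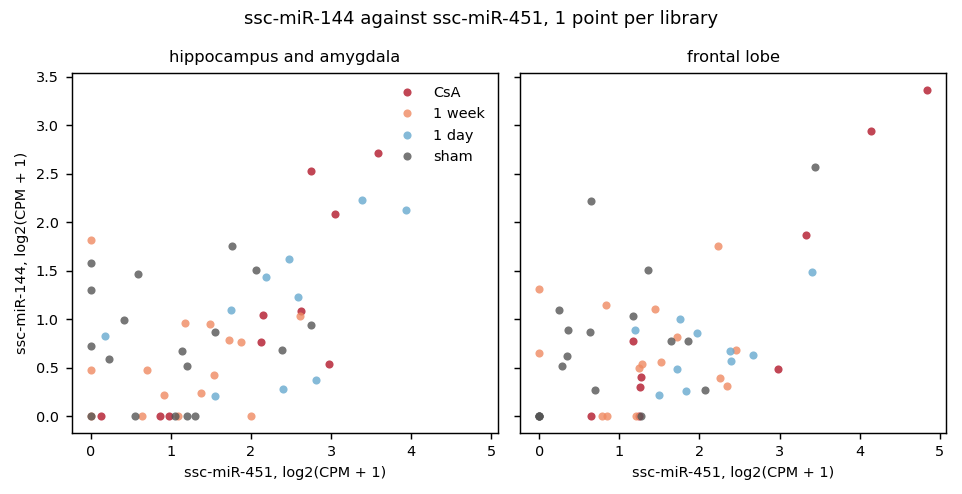
ssc-miR-144 against ssc-miR-451, both as log2(CPM + 1), with 1 point per library coloured by group, in the hippocampus and amygdala (left) and the frontal lobe (right). Among the frontal lobe CsA libraries the 3 highest in miR-451 are the 3 highest in miR-144, while most other points lie at low counts.

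Across all libraries of a region, after each group's mean was removed, the miRNAs most like each member by Spearman's rho were listed as a description. The libraries share their sequencing depth and tissue blocks. miR-144 was the second most like miR-451 in both regions (rho 0.42 over 53 libraries of the hippocampus and amygdala, 0.48 over 52 of the frontal lobe). First came endothelial miR-126-3p (0.46) in the hippocampus and amygdala and activity-responsive miR-132 (0.49) in the frontal lobe. miR-381-3p, miR-340 and miR-186-5p followed in the hippocampus and amygdala at 0.41, 0.40 and 0.37, and miR-411, miR-23a and miR-365-3p in the frontal lobe at 0.41, 0.40 and 0.38. For miR-144, miR-451 came first in the frontal lobe and 7th in the hippocampus and amygdala, where miR-499-5p (0.53), miR-29b (0.48), miR-545-5p (0.46), miR-29c (0.45) and miR-142-3p (0.44) led. In the frontal lobe miR-140-3p (0.40), miR-339-3p (0.37), miR-489 (0.33) and miR-9841-3p (0.32) followed.

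miR-486 kept other company, at higher coefficients. miR-744 came first in both regions (0.79 in the hippocampus and amygdala, 0.85 in the frontal lobe). In the hippocampus and amygdala miR-7134-3p (0.72), miR-324 (0.71), miR-2320-5p (0.71) and miR-1343 (0.70) followed, and in the frontal lobe miR-193a-5p (0.81), miR-296-3p (0.81), miR-671-3p (0.80) and miR-7134-3p (0.80). Its rho with miR-451 was -0.02 in the hippocampus and amygdala and -0.05 in the frontal lobe, and with miR-144 it was -0.04 and 0.25. Within single groups, no relation of miR-486 with miR-451 or miR-144 passed after adjustment over the 60. Pearson's r of miR-486 with the log10 library total was negative in every group of both regions. It was -0.60 for frontal lobe tissue at 1 week (n = 15), -0.53 at 1 day (n = 10) and -0.26 in sham tissue (n = 18). Hippocampal and amygdalar values ran from -0.38 at 1 day to -0.03 with CsA. None passed after adjustment, the smallest adjusted p by permutation being 0.25. The 1 day differences of miR-486 with this total as a covariate are given above.

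Other miRNAs that are plentiful in red cells, most of which brain cells also make, were read beside the 3. Either arm of a listed name was taken, so an arm such as miR-17-3p need not itself be plentiful there. At 1 day 8 of the 15 rose and 0 fell in the hippocampus and amygdala, where 48.6% of all tested miRNAs passed (82 higher and 59 lower of 290). Their median log2 difference was 0.36, against 0.07 for all tested miRNAs. miR-16 averaged 6815 CPM at 1 day and 5210 CPM in sham tissue (log2 0.39, edgeR, adjusted p = 0.00010), and miR-15b 269.2 and 165.9 CPM (0.70, adjusted p = 0.00018). miR-191 (0.44, adjusted p = 0.00095) and miR-17-3p (0.75, adjusted p = 0.0014) followed. In the frontal lobe 7 rose and 1 fell, where 44.7% passed (53 higher and 74 lower of 284), with a median of 0.20 against -0.04 for all. miR-15b (0.58, edgeR, adjusted p = 0.00020), miR-17-3p (0.68, adjusted p = 0.0011), miR-16 (0.23, adjusted p = 0.0039) and miR-363 (0.67, adjusted p = 0.010) had the smallest p. With CsA against sham 4 rose and 1 fell in the hippocampus and amygdala, where 20.3% of all passed, and 4 rose and 0 fell in the frontal lobe, where 34.2% did. At 1 week against 1 day 0 rose and 7 fell in the hippocampus and amygdala, where 29.3% passed (34 higher and 51 lower). In the frontal lobe 1 rose and 5 fell, where 35.9% passed (66 higher and 36 lower). Summed over the list, the level ran from 15669 to 19564 CPM at 1 day and from 10674 to 16618 CPM in sham libraries of the hippocampus and amygdala, and from 16204 to 18511 CPM and from 11231 to 16825 CPM in the frontal lobe.

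Markers of other cells in the tissue were read in the same way. Endothelial miR-126-3p rose at 1 day by 0.41 in the hippocampus and amygdala (5155 CPM at 1 day, 3872 CPM in sham tissue, edgeR, adjusted p = 0.00020) and by 0.28 in the frontal lobe (adjusted p = 0.027). Of the 2 tested arms of miR-126, 2 rose in the hippocampus and amygdala and 1 in the frontal lobe, beside 48.6% and 44.7% of all miRNAs that passed. Of 6 tested leukocyte miRNAs 3 rose in the hippocampus and amygdala at 1 day, a share near the 48.6% of all miRNAs that passed there: miR-142-5p (0.49, adjusted p = 0.0079), miR-223 of neutrophils and monocytes (0.49, adjusted p = 0.030) and miR-155-5p (0.19, edgeR, adjusted p = 0.049). Of the same 6, 0 passed in the frontal lobe by edgeR at 1 day, 1 of them, miR-142-3p (-0.47), at an unadjusted p under 0.05. The summed level of all 7 leukocyte rows ran from 868.0 to 1406 CPM at 1 day and from 763.8 to 1349 CPM in sham libraries of the hippocampus and amygdala. Little of that sum was miR-142-5p or miR-223, whose medians over all libraries were 25.7 and 5.70 CPM. The part of these cell types in the miR-451 values was not tested.

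Muscle miRNAs were read beside miR-486, which striated muscle also makes. Of 3 tested, 1 passed at 1 day in each region, beside 48.6% and 44.7% of all miRNAs. miR-206 fell at 1 day by 0.98 in the frontal lobe (22.4 CPM at 1 day, 43.9 CPM in sham tissue, edgeR, adjusted p = 0.00010) and by 0.81 in the hippocampus and amygdala (adjusted p = 0.0010). miR-1 and miR-133a-3p did not pass in either region (log2 fold changes of 0.03 and 0.55 for hippocampus and amygdala, -0.13 and 0.41 for frontal lobe). The summed level of the list lay between 105.5 and 158.6 CPM at 1 day and between 77.7 and 279.3 CPM in sham libraries of the frontal lobe. Its part in the miR-486 values was not tested.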

How the data were processed

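The authors deposited 1 table of raw counts, whole numbers of reads per porcine miRNA entry and library. The submitters' processing notes name Trimmomatic 0.39 and cutadapt 1.9.1. Which aligner, annotation and genome build they used, and whether molecular identifiers were collapsed, is not given in those sources, so counts need not be independent molecules and a floor of 3 counts covers counting error only. Per the labels' protocols, RNA came from fixed tissue and libraries from the QIAseq miRNA kit. All 105 columns were matched to samples by name.

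The 542 entries (89 at 0 in every library) had 457 names. Of repeated names the entry with the highest total was kept, and differently named entries holding the same reads (totals of 100 or more, summed differences under 0.01 of the total) were joined, which left 448. No library repeated another: the most alike pair of 1 group still gave a chi-square of 4484 with 218 degrees of freedom. The counts were tested with edgeR 4.0.16 in R 4.3.3 (glmQLFit with robust estimation, TMM factors, filterByExpr with a minimum count of 10 and a minimum total of 15), 2-sided, with Benjamini-Hochberg adjustment within a comparison at 0.05. The 4 groups of a region shared 1 fit. A separate fit of both regions had the animal as a block, because the labels give the same code to both libraries of an animal. Deviations from the group means of such pairs had a median correlation of 0.27 (over 0.1 in 38 of 52), against -0.01 for different animals. Where libraries of 1 group come from litter mates or separate procedures is not given, and 25 animals shared a code before the hyphen with another, which no test took into account. Correlations used 100000 permutations, or all of them under 10 animals, and a pseudocount of 1 CPM. DESeq2 1.42.0, other scalings, filters, a total covariate, code ranges and leaving out each library were tried as alternatives. The scripts were tested on simulated counts.

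The miRNAs, the lists of other miRNAs and the tests were chosen with earlier results of these data known. Named are the 3 members in every comparison, at most 4 per list by smallest p, and the 5 miRNAs most like each member.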

Additional observations from a re-analysis of the deposited data

Results flagged for a closer look

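In the frontal lobe at 1 day (n = 10) 1 library, replicate 2, stood apart in both cluster miRNAs. It held 9.63 CPM of miR-451, with a gap to the next library of 0.51 of the group's whole range, and 1.81 CPM of miR-144, with a gap of 0.49. Dixon's critical value for 10 samples is exceeded by both, which about 1 in 20 groups of normally distributed values would do. CPM need not be normally distributed, and both ends of every group of 10 or fewer libraries were screened. Both values come from the same library and cluster, so they are not separate events. The same library held 53.8 CPM of miR-486, inside the range of its group. Without it the frontal lobe difference of miR-451 at 1 day from sham was 0.98 (edgeR, adjusted p = 0.13). The cause was not tested.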

How the results depend on the processing

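For 51 log2 differences, 13 other settings gave 382 values, of which 345 kept direction and side of the threshold. Values of the same direction without an adjusted p were counted among these 345. For miR-451 at 1 day minus sham in the frontal lobe the threshold was passed with RLE factors (1.31), library totals alone (1.45), unmerged entries (1.24), DESeq2 (1.34) and codes 10 or 11 (3.67). For miR-451 calls were lost in codes 12 or 13 for 1 day minus sham in the hippocampus and amygdala (1.85), and for CsA minus sham (frontal lobe 2.41, and 4.41 in codes 10 or 11; hippocampus and amygdala 1.41, and 1.54 with the total as covariate). miR-451 at 1 week minus sham reversed within codes from 14 (frontal lobe -0.14, hippocampus and amygdala -0.26). miR-144 at 1 week minus 1 day passed with library totals alone (-1.62). miR-486 at 1 day minus sham lost its frontal lobe call in codes 12 or 13 (-0.64), while its hippocampus and amygdala difference passed with RLE factors (-0.44), let-7 left out (-0.46), a minimum count of 50 (-0.49), unmerged entries (-0.48) and DESeq2 (-0.44), and was smaller with totals alone (-0.12) or the total as covariate (-0.25). Its frontal lobe call at 1 week minus 1 day was lost with totals alone (0.43), the total as covariate (0.53) and codes 10 or 11 (0.52), and 1 week minus sham passed in codes from 14 (-0.45). Its frontal lobe call for CsA minus sham was lost with RLE factors (-0.50), totals alone (-0.36), let-7 left out (-0.55), the total as covariate (-0.34), totals under 1000000 left out (-0.47) and codes 10 or 11 (-0.42) or 12 or 13 (-0.42). Its region difference in sham animals passed with RLE factors (0.35), totals alone (0.40) and DESeq2 (0.34). Without the animal block no call changed: the region difference of miR-486 was 0.99 with CsA and 0.71 at 1 day without the pairing, and its 1 week interaction turned to 0.024. The 1 week interaction of miR-144 turned with RLE factors (-0.00095), no filter (-0.049) and DESeq2 (-0.0094). Causes were not tested.

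Leaving out 1 library or animal gave these ranges where a call or sign changed. For miR-451 they were, in the frontal lobe, 0.98 to 1.73 (1 day minus sham), and, in hippocampal and amygdalar tissue, -1.91 to -1.31 (1 week minus 1 day), 1.37 to 1.91 (CsA minus sham), -0.064 to 0.48 (1 week minus sham) and -0.44 to 0.12 (CsA minus 1 day). Its region difference in sham animals ran from -0.41 to 0.077 and its 1 week interaction from -0.41 to 0.021. For miR-144 they were -1.73 to -1.23 (1 week minus 1 day) and -0.23 to 0.47 (CsA minus 1 day) in the hippocampus and amygdala, -1.05 to 0.091 (region, CsA), -0.18 to 0.30 (1 week interaction) and -0.61 to 0.53 (CsA interaction). For miR-486 they were -0.49 to -0.32 (1 day minus sham) and -0.040 to 0.20 (CsA minus sham) in the hippocampus and amygdala, 0.54 to 0.74 (1 week minus 1 day) and -0.70 to -0.44 (CsA minus sham) in the frontal lobe, 0.22 to 0.41 (region, sham) and -0.10 to 0.048 (1 week interaction). In the frontal lobe, miR-451 kept sign and side at 0.39 to 1.21 (CsA minus 1 day) and 0.20 to 0.86 (1 week minus sham). Single counts limit miR-144 and miR-451 in shallow sham libraries; DESeq2 gave no adjusted p for miR-144 in CsA minus 1 day (hippocampus and amygdala) or in the CsA interaction. Where a code range held no animals of a group, or miR-144 did not pass the filter, no value was had.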
